A study of Mus musculus with 9 samples.

Results

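The 7 genes described here encode the core of the RNA silencing complex, namely the 4 Argonautes, Ago1, Ago2, Ago3 and Ago4, and the 3 TNRC6 scaffold proteins, Tnrc6a, Tnrc6b and Tnrc6c. They were taken by gene name from the array annotation, where the Argonautes carry their older symbols Eif2c1, Eif2c2, Eif2c3 and Eif2c4. They are 7 of 36472 genes or regions on the array and 7 of the 23094 that were tested. Under these names the array held 10 probes, of which the one with the highest mean stands for each gene. All 10 lay well above background on all 9 arrays, so no member was lost to the filter on dim probes.

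The RNA came from LSK cells, the fraction of mouse bone marrow that lacks lineage markers and carries Sca1 and cKit, which holds blood stem cells and early progenitors. All cells were from female mice and carried the Gt(ROSA)26Sor CreERT2 allele, a tamoxifen-activated Cre recombinase at a locus that is active in most cell types. The Drosha-deleted group came from Drosha fl/fl mice, the Dicer-deleted group from Dicer fl/fl mice, and the control group from mice labelled with the Cre allele alone. The controls were therefore exposed to active Cre as well. The medium of every group contained 4OH-tamoxifen (250 nM), stem cell factor (50 ng/mL), interleukins 3 and 6 (10 ng/mL of either) and 10% serum, and 50000 cells were seeded in a well and harvested after 72 h. There were 3 arrays per group. The labels give neither the ages of the mice nor whether the repeats came from separate animals, so the p-values measure only the spread between these samples, which may be technical. The number of arrays limits the precision.

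An Argonaute protein holds a microRNA and uses its seed to find target mRNAs. Drosha cuts the primary microRNA transcript in the nucleus and Dicer cuts the resulting hairpin in the cytoplasm, and the product is loaded into an Argonaute with the help of Hsp70 and Hsp90 chaperones. A TNRC6 protein, the mammalian GW182, then binds the Argonaute and recruits the CCR4-NOT and PAN2-PAN3 deadenylases, after which the mRNA is decapped and degraded. Ago2 is the main slicer among the mouse Argonautes and is known in blood for its part in red cell and B cell development. Argonaute proteins that carry no small RNA are known to be less stable in mouse cells, but the arrays measured RNA alone.

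3 of the Argonaute genes lie beside each other on chromosome 4, in the order Tekt2, Ago3, Ago1, Ago4 and Clspn among protein-coding genes of the RefSeq table. Ago2 lies on chromosome 15 between Chrac1 and Ptk2, Tnrc6b on chromosome 15 between Fam83f and Adsl, Tnrc6a on chromosome 7 between Rbbp6 and Slc5a11, and Tnrc6c on chromosome 11 between Septin9 and Tmc6. Promoter windows of 300 bases from RefSeq, on GRCm38.p6, were found for 6 of the 7 genes, in 8 windows, and Ago2 had no entry. The windows of Ago1 and Ago4 are shown because the differences of these neighbours from control had opposite signs, and that of Tnrc6a because it had the largest difference of the 7 genes. They lie at chr4:126468534-126468833 on the minus strand for Ago1, chr4:126533409-126533708 on the minus strand for Ago4 and chr7:123123635-123123934 on the plus strand for Tnrc6a. Each is printed 5′ to 3′, and capitals mark the GC box, GGGCGG or CCGCCC on the other strand, and the CCAAT box, CCAAT or ATTGG on the other strand.
Ago1: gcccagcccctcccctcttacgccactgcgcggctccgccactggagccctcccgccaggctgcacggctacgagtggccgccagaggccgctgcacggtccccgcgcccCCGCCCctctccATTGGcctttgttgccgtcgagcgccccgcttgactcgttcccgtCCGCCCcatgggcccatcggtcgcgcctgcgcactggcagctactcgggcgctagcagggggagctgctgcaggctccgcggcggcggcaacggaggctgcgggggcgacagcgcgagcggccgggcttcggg
Ago4: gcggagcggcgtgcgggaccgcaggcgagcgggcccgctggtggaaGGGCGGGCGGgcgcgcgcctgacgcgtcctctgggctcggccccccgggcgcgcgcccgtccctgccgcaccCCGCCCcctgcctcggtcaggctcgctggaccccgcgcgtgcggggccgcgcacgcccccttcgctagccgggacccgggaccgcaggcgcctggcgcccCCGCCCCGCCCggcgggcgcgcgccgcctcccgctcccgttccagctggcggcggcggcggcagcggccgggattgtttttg
Tnrc6a: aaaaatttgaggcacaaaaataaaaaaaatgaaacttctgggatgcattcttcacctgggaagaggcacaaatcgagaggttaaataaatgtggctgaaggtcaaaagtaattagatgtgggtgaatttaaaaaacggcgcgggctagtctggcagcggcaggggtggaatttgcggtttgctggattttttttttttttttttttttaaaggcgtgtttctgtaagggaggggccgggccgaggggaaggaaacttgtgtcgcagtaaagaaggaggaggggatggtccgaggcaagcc

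The Ago1 window shown held 38 CG dinucleotides and 75.7% G and C, with 2 GC boxes and 1 CCAAT box. The Ago4 window held 54 CG dinucleotides and 83.3% G and C, with 5 GC boxes counted with overlaps. The Tnrc6a window held 11 CG dinucleotides and 44.7% G and C, with neither motif. The median of the 32851 RefSeq windows was 7 CG dinucleotides and 52.7% G and C, to which the Tnrc6a window was the closest of the 3 shown. A GC box was present in 5 of the 8 windows of these genes, those of Ago1, Ago3, Ago4 and Tnrc6b, against 35.7% of all windows. A CCAAT box was present in 3 of the 8 windows, those of Ago1 and Tnrc6b, against 37.4% of all windows. A further Ago1 window overlaps the one shown and repeats its GC and CCAAT boxes, so both counts include the same Ago1 boxes again. The E-box CACGTG was found in 1 window, at Tnrc6b, against 7.15% of all windows, and the ETS motif CCGGAAG or CTTCCGG in 1 window, at Ago3, against 8.86%. TATAAA or TTTATA was in 0 of the 8 windows, against 13.6% of all windows, and the CRE motif TGACGTCA was in 0, against 1.79%. These matches describe the letters of the windows alone.

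The deleted genes were measured first. Drosha stood at 8.81, 8.92 and 9.32 in the Drosha-deleted columns, 11.99, 12.16 and 11.94 in the Dicer-deleted columns and 12.04, 11.88 and 11.85 in the control columns, all on the authors' log2 scale, which is used for every level below. Dicer1 stood at 10.53, 10.00 and 10.80 in the Drosha-deleted columns, 8.99, 9.18 and 8.97 in the Dicer-deleted columns and 9.92, 10.50 and 10.44 in the control columns. Each deleted gene was thus lowest in all 3 arrays of its own group, with no overlap with the other groups. Drosha fell by 2.91 on the log2 scale (limma adjusted p = 1.5e-04, n = 3 against 3 arrays), whereas the Dicer1 difference of -1.24 did not pass the threshold of 0.05 (adjusted p = 0.118). Set against the first control column alone, the differences were -3.02 for Drosha and -0.87 for Dicer1. Whether either probe lies in the floxed part of its gene was not analysed here.

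Controls 2 and 3 stood apart from the other 7 columns over all probes. Between control 2 or 3 and any of the other 7 columns, the SD over probes of the difference was 0.563 to 0.705 on the log2 scale, whereas it was 0.282 to 0.465 among the other 7, control 1 included, and 0.320 between controls 2 and 3. Control 3 was the one array on a separate slide. The scanner file of control 2 had 93.1% of probes well above background and 19.1% of spots marked as outliers, against 53.4% to 61.6% and at most 0.265% on the other 8 arrays, and its authors' column was most like the scanner file of control 3. Where these 2 columns carry a difference, what sets them apart and what sets controls apart cannot be told apart. Differences of the 7 genes and of the related genes from control are therefore also given against control 1 alone, a fit that was added after the data were seen and that assumes the lone array to vary like the others. The comparison between the 2 deletions does not use these columns, although they enter its estimate of the spread. The sorting markers Kit and Ly6a (Sca1), the progenitor gene Cd34 and the pan-leukocyte gene Ptprc were in the upper part of every column, from 10.11 for Ly6a in control 2 to 15.49 for Cd34 in Dicer-deleted 2. Ly6a differed among the controls, at 12.27 in control 1, the highest of the 9 columns, against 10.11 and 10.73 in controls 2 and 3. Among markers of other cells, Ebf1, Pax5, Rag1, Cd3g, Ncr1, Hbb-b1 and Ly6g were not well above background in any whole group. Other genes of their lists were, with 9 of 10 neutrophil, 7 of 9 erythroid and 4 of 10 lymphoid genes tested. The neutrophil genes summed to 383021 to 1165980 on the linear scale over all columns. All 9 mast cell and basophil genes and all 7 eosinophil genes were tested. The summed linear level of 10 monocyte and macrophage genes was 20082 to 26311 in Drosha-deleted and 16712 to 38979 in Dicer-deleted columns. In control columns it was 31959 to 48697. The sum of 8 megakaryocyte genes was 351335 to 444084 in Drosha-deleted, 315502 to 364624 in Dicer-deleted and 442787 to 511285 in control columns, so that the Dicer-deleted columns lay below the controls. The sum of 9 dendritic cell genes was 126583 to 168104 in Drosha-deleted, 105108 to 138285 in Dicer-deleted and 136446 to 157860 in control columns. The median differences of Dicer-deleted cells from control were -0.73 for both of these lists and -0.49 for the monocyte and macrophage list, with 0 genes past the threshold in any of the 3. In Drosha-deleted cells the medians were -0.18 for megakaryocyte, -0.07 for dendritic cell and -0.71 for monocyte and macrophage genes. The monocyte and macrophage sums lay below control in all Drosha-deleted columns and overlapped control in Dicer-deleted columns. Cd14, of the monocyte and macrophage list, was the 1 of its 10 genes past the threshold in Drosha-deleted cells, where it was lower (difference -1.26, limma adjusted p = 0.030). The part of such cells in the results below was not tested, and in bulk RNA fewer cells of a type and less RNA per cell cannot be told apart.

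Ago1 was higher in both deletions than in control on its main probe, without passing the threshold. Its probe at chr4:126112644-126112703 (minus strand, mm9) read 9.98, 9.93 and 10.44 in Drosha-deleted columns, 10.19, 10.39 and 9.95 in Dicer-deleted columns and 9.72, 9.87 and 9.62 in control columns. Every deletion column lay above every control column, and the 2 deletion groups overlapped. The difference from control was 0.38 in Drosha-deleted cells (SE 0.17, 95% interval -0.01 to 0.77, limma adjusted p = 0.196), a 1.30-fold difference. In Dicer-deleted cells it was 0.44 (SE 0.17, 95% interval 0.04 to 0.83, adjusted p = 0.201), a 1.35-fold difference. Set against control 1 alone, the differences were 0.40 (95% interval -0.20 to 1.00) and 0.46 (95% interval -0.15 to 1.06), close to those against all 3 controls.

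The other Ago1 probe, a much dimmer one, did not show this difference. Against percentiles 78 to 82 of the columns for the main probe, the other probe lay at 46 to 53. It lies upstream in the gene, at chr4:126117202-126117261, and read 6.19, 6.10 and 6.11 in Drosha-deleted columns, 6.25, 6.30 and 6.14 in Dicer-deleted columns and 6.14, 6.53 and 6.23 in control columns. Here the groups of both comparisons with control overlapped. The differences from control were -0.17 (95% interval -0.47 to 0.13) for Drosha-deleted and -0.07 (95% interval -0.37 to 0.23) for Dicer-deleted cells, so against all 3 controls the signs differed between the 2 Ago1 probes. Set against control 1 alone, the upstream probe gave -0.01 for the Drosha deletion and 0.09 for the Dicer deletion, so the Dicer-deleted difference then had the same sign on both probes.

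Ago2, the main slicer, had 2 probes under its own name and 2 more that the array names after cDNAs, 2310051F07Rik and 1110029L17Rik, which the RefSeq table lists as synonyms of Ago2. Its main probe at chr15:72936863-72936922 (minus strand, mm9) read 11.54, 11.26 and 12.11 in Drosha-deleted columns, 11.30, 11.60 and 11.43 in Dicer-deleted columns and 11.08, 11.38 and 11.44 in control columns. Drosha-deleted 3 was the highest of the 9 columns, and all 3 groups overlapped. The difference from control was 0.34 for Drosha-deleted (SE 0.21, 95% interval -0.15 to 0.82, adjusted p = 0.325) and 0.15 for Dicer-deleted cells (95% interval -0.34 to 0.63, adjusted p = 0.698). Without Drosha-deleted 3, the Drosha-deleted difference was 0.10.

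The second Ago2 probe, at chr15:72935705-72935764, read 10.42, 10.29 and 10.32 in Drosha-deleted columns, 10.18, 10.05 and 10.06 in Dicer-deleted columns and 10.20, 9.79 and 9.78 in control columns. Here Drosha-deleted columns lay above all others and differed from control by 0.42 (95% interval 0.10 to 0.73, adjusted p = 0.126 over 31490 probes), but by 0.15 against control 1 alone. Its Dicer-deleted difference was 0.17. The 2310051F07Rik probe, at chr15:72928888-72928947, read 12.75, 12.35 and 12.92 in Drosha-deleted columns, 12.71, 12.83 and 12.77 in Dicer-deleted columns and 12.29, 11.74 and 12.04 in control columns. All 6 deletion columns lay above the 3 control columns on this probe, with differences of 0.65 for Drosha-deleted (adjusted p = 0.111 over 31490 probes) and 0.75 for Dicer-deleted cells (adjusted p = 0.153), and of 0.38 and 0.48 against control 1 alone. The 1110029L17Rik probe, at chr15:72926367-72926426, read 12.02, 11.66 and 12.07 in Drosha-deleted columns, 12.00, 12.01 and 11.87 in Dicer-deleted columns and 11.41, 11.70 and 11.82 in control columns, with differences of 0.27 and 0.32, and of 0.51 and 0.55 against control 1 alone. All 4 probes placed on Ago2 thus gave positive differences from the 3 controls in both deletions, of 0.15 to 0.75, and none passed the threshold. With control 1 as the lone control, 1 of these 8 differences was negative, the second probe in Dicer-deleted cells (-0.10).

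**Figure D1:**
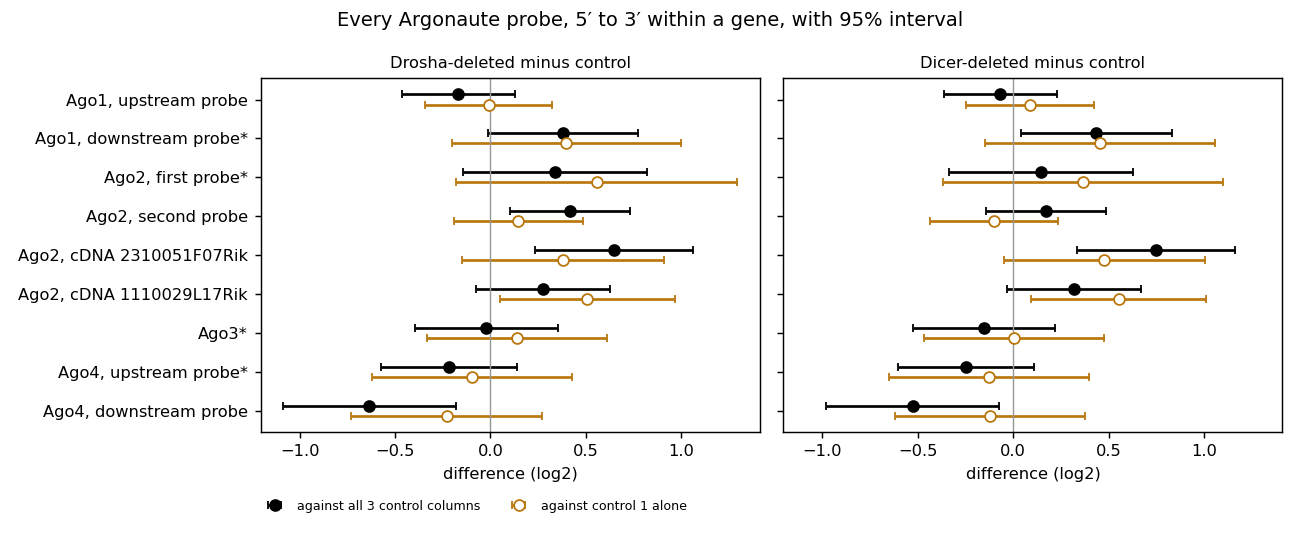
Differences from control on the log2 scale for every Argonaute probe, with 95% intervals, for Drosha-deleted (left) and Dicer-deleted cells (right). Filled black points are against all 3 control columns and open orange points against control 1 alone, and an asterisk marks the probe that stands for the gene. The 2 Ago1 probes lie on opposite sides of 0 against all 3 controls, and the downstream Ago4 probe lies at -0.63 and -0.53 against all 3 controls but at -0.23 and -0.12 against control 1 alone.

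Ago3, which like Ago1 and Ago4 is known mainly for silencing without slicing, differed little between groups. Its 1 probe, at chr4:126032332-126032391 (minus strand, mm9), read 6.35, 6.09 and 6.30 in Drosha-deleted columns, 6.27, 6.19 and 5.88 in Dicer-deleted columns and 6.11, 6.14 and 6.55 in control columns. The 3 groups overlapped. The difference from control was -0.02 for Drosha-deleted (95% interval -0.39 to 0.35, adjusted p = 0.945) and -0.15 for Dicer-deleted cells (95% interval -0.53 to 0.22, adjusted p = 0.588). Both signs turned against control 1 alone, to 0.14 and 0.0056. The probe was dim, at percentiles 40 to 54 of the columns.

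Ago4 was the 1 Argonaute with lower values than control in both deletions on both of its probes. The main probe, at chr4:126169537-126169596 (minus strand, mm9), read 8.29, 8.25 and 8.77 in Drosha-deleted columns, 8.43, 8.42 and 8.37 in Dicer-deleted columns and 8.53, 8.80 and 8.62 in control columns. All 3 Dicer-deleted columns lay below the controls, and Drosha-deleted 3 overlapped them. The differences from control were -0.22 (95% interval -0.57 to 0.14, adjusted p = 0.388) for Drosha-deleted and -0.25 (95% interval -0.60 to 0.11, adjusted p = 0.358) for Dicer-deleted cells. The downstream probe, at chr4:126167162-126167221, read 7.24, 6.96 and 7.46 in Drosha-deleted columns, 7.23, 7.42 and 7.33 in Dicer-deleted columns and 7.45, 8.17 and 7.95 in control columns. Controls 2 and 3 stood above all 6 deletion columns on this probe and control 1 did not. Its differences were -0.63 (adjusted p = 0.122 over 31490 probes) and -0.53 (adjusted p = 0.199) against all 3 controls, and -0.23 and -0.12 against control 1 alone. Both Ago4 probes were marked as outliers in the scanner file of control 2, the column with the highest control value on each.

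Among the scaffold genes, Tnrc6a showed the largest difference of the 7 genes. Its probe at chr7:130338627-130338686 (plus strand, mm9) read 10.77, 10.32 and 10.70 in Drosha-deleted columns, 10.10, 10.41 and 10.26 in Dicer-deleted columns and 9.64, 10.19 and 10.14 in control columns. All Drosha-deleted columns lay above the controls, the Dicer-deleted columns overlapped both other groups, and control 1 was the lowest of the 9. The group means were 10.60 ± 0.24 in Drosha-deleted, 10.26 ± 0.15 in Dicer-deleted and 9.99 ± 0.31 in control columns (SD, n = 3 each). The Drosha-deleted difference from control was 0.61 (SE 0.19, 95% interval 0.18 to 1.03), a 1.52-fold difference with a limma adjusted p of 0.119. The Dicer-deleted difference from control was 0.27 (95% interval -0.16 to 0.69, adjusted p = 0.403). Against control 1 alone they were 0.96 (95% interval 0.45 to 1.48, adjusted p = 0.489) and 0.62 (95% interval 0.11 to 1.14), so the direction held and the size moved with the choice of controls.

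Tnrc6b, a paralogue of Tnrc6a that also binds Argonautes through GW repeats, read 10.03, 9.63 and 10.27 in Drosha-deleted columns, 9.59, 9.86 and 9.72 in Dicer-deleted columns and 9.47, 9.88 and 9.90 in control columns (chr15:80759793-80759852, plus strand, mm9). The 3 groups overlapped. The differences from control were 0.23 (95% interval -0.20 to 0.66, adjusted p = 0.448) for Drosha-deleted and -0.02 (95% interval -0.45 to 0.40, adjusted p = 0.952) for Dicer-deleted cells. Both were positive against control 1 alone, at 0.51 and 0.26.

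Tnrc6c, the third paralogue, read 9.80, 9.52 and 10.28 in Drosha-deleted columns, 9.76, 9.60 and 9.75 in Dicer-deleted columns and 9.60, 10.23 and 10.11 in control columns (chr11:117624691-117624750, plus strand, mm9). The highest value was in Drosha-deleted 3 and the lowest in Drosha-deleted 2, so the spread within this group exceeded the differences between groups. The differences from control were -0.12 (95% interval -0.61 to 0.38, adjusted p = 0.756) for Drosha-deleted and -0.28 (95% interval -0.78 to 0.22, adjusted p = 0.460) for Dicer-deleted cells. Both turned positive against control 1 alone, at 0.26 and 0.10.

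**Figure D2:**
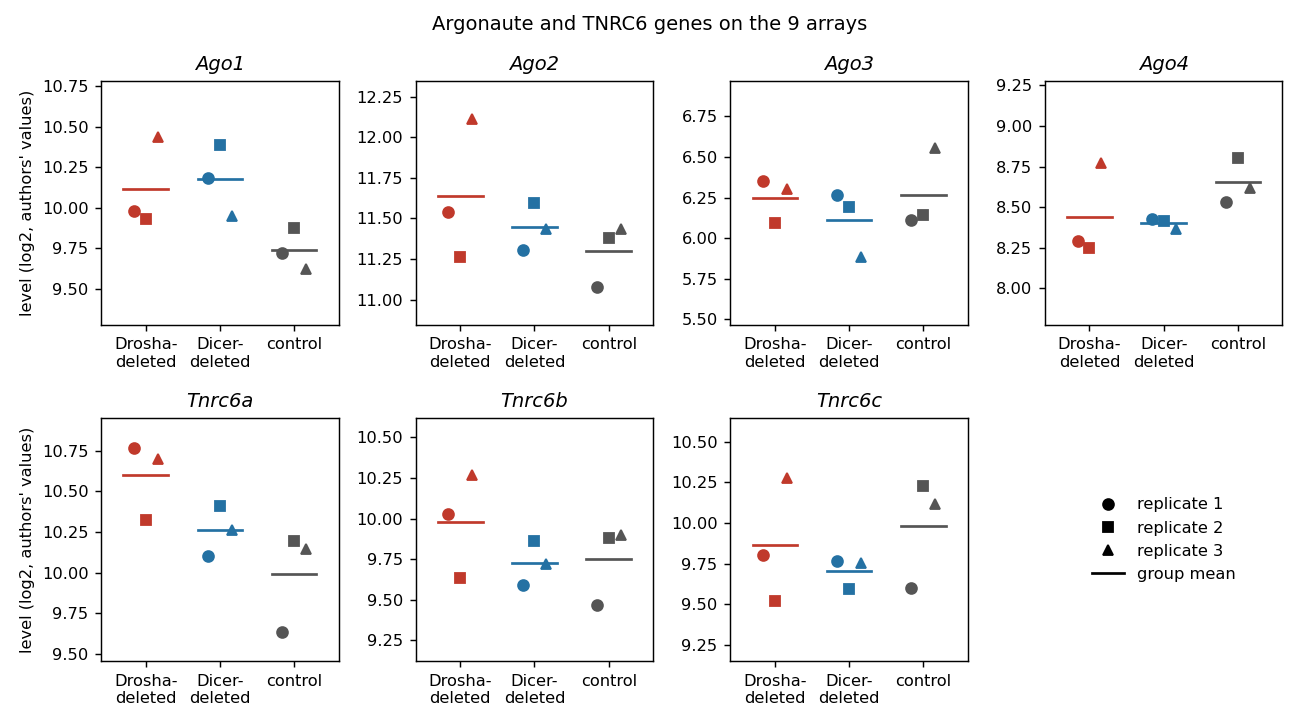
Level of each gene on the authors' log2 scale in the 3 Drosha-deleted (red), 3 Dicer-deleted (blue) and 3 control (grey) columns, with marker shape for the replicate and a line for the group mean. Each panel has its own axis of equal height. The Ago1 values of both deletions lie above the controls, the Tnrc6a values of Drosha-deleted cells lie above the controls, and the other groups overlap except Dicer-deleted Ago4, which lies below.

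Over the 7 genes, 0 passed the threshold in Drosha-deleted against control cells by limma, where 39 of all 23094 genes did (0.169%), 28 of them higher (0.121%) and 11 lower (0.0476%). At an unadjusted p under 0.05, 1 of the 7 was higher (Tnrc6a), against 15.4% of all genes, and 0 were lower, against 11.5%. Both groups were free of overlap for 2 genes, Ago1 and Tnrc6a, in the higher direction, against 12.7% of all genes, and for 0 in the lower direction, against 10.5%. 4 of the 7 differences were positive, with a median of 0.23 beside -0.002 over all genes. Control 3 was the only array on its slide, so a slide term in the fit amounts to leaving out control 3. It cannot separate the slide from that control. With slide as a term in the fit the differences were 0.32 for Ago1, 0.41 for Ago2, 0.12 for Ago3, -0.23 for Ago4, 0.68 for Tnrc6a, 0.30 for Tnrc6b and -0.05 for Tnrc6c. Without control 1, 7763 of all genes and 0 of the 7 passed.

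In Dicer-deleted against control cells, which share the control columns with the comparison above, 0 of the 7 genes passed, where 4 of 23094 genes did (0.0173%), 1 of them higher (0.00433%) and 3 lower (0.0130%). At an unadjusted p under 0.05, 1 of the 7 was higher (Ago1), against 12.8% of all genes, and 0 were lower, against 9.14%. The groups did not overlap for Ago1, which was higher, against 11.6% of all genes, and for Ago4, which was lower, against 9.97%. The median difference was -0.02 beside -0.002 over all genes, with 3 positive differences. The slide term again amounts to leaving out control 3. With it the differences were 0.38 for Ago1, 0.21 for Ago2, -0.01 for Ago3, -0.26 for Ago4, 0.34 for Tnrc6a, 0.05 for Tnrc6b and -0.21 for Tnrc6c. Without control 1, 7045 of all genes and 0 of the 7 passed.

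Between the deletions, Drosha-deleted minus Dicer-deleted, 0 of the 7 genes passed by limma, where 13 of 23094 genes did (0.0563%), 12 of them higher (0.0520%) and 1 lower (0.00433%). 0 of the 7 had an unadjusted p under 0.05 in either direction, against 3.23% of all genes higher and 2.42% lower, and all 7 overlapped between the groups, against 8.62% and 6.77% of all genes without overlap. The largest difference was that of Tnrc6a, 0.34 (95% interval -0.08 to 0.76), followed by Tnrc6b with 0.25 (95% interval -0.18 to 0.68), Ago2 with 0.19 (95% interval -0.29 to 0.68) and Tnrc6c with 0.16 (95% interval -0.34 to 0.66). Ago3 differed by 0.13, Ago4 by 0.03 and Ago1 by -0.06 (95% interval -0.45 to 0.34). These intervals hold differences of up to 0.76 on the log2 scale, so they do not show that the deletions act alike.

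**Figure D3:**
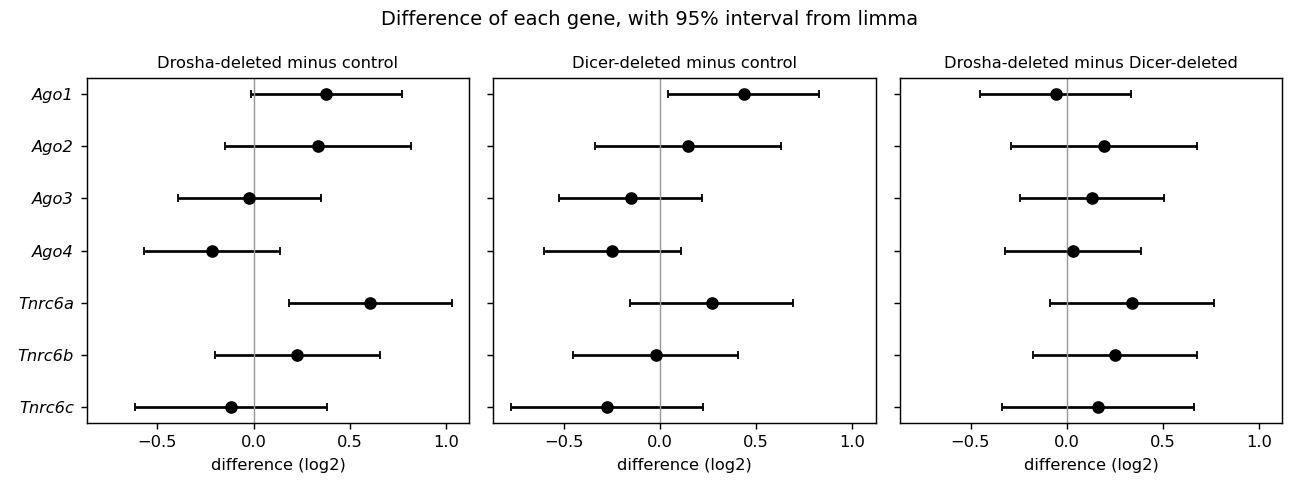
Difference of each gene on the log2 scale with its 95% interval from limma, for Drosha-deleted minus control (left), Dicer-deleted minus control (middle) and Drosha-deleted minus Dicer-deleted (right). The intervals of Tnrc6a in the left panel and of Ago1 in the middle panel lie above 0, and all others hold 0.

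The order of the group means differed between genes. Ago2 and Tnrc6a were highest in Drosha-deleted, next in Dicer-deleted and lowest in control columns. Ago1 was highest in Dicer-deleted and lowest in control columns. Ago3, Ago4 and Tnrc6c were highest in control columns, and Tnrc6b was highest in Drosha-deleted columns with control second. For Ago2, Ago3, Tnrc6b and Tnrc6c every pair of groups overlapped. Of groups next to each other in these orders, Drosha-deleted and control columns for Ago1 were the 1 pair without overlap.

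Within groups the 7 genes moved with single columns. Drosha-deleted 2 was the lowest of its group for 7 of 7 genes, against 31.7% of all genes, and Drosha-deleted 3 the highest for 5 of 7, against 44.0%. Control 1 was the lowest of its group for 6 of 7 genes, all but Ago1, against 43.8% of all genes. Over the 9 columns the strongest likeness between members was that of Ago2 and Tnrc6b (Pearson r = 0.92, and 0.94 after the group means were removed). Ago4 and Tnrc6c followed with r = 0.85, and Tnrc6a and Tnrc6b with 0.82. Ago1 and Ago4, neighbours on chromosome 4, had r = 0.02 over the 9 columns and 0.82 within groups. These values describe columns that share groups, slide and normalisation, and carry no test.

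Of 13983 named genes compared over the same 9 columns, those most like Ago1 were Kars, a lysyl-tRNA synthetase, with r = 0.96, and Emid1 with 0.95. Those most like Ago2 were Cnot6, a catalytic subunit of the CCR4-NOT deadenylase, with 0.94, and Senp8 with 0.93. Ago3 was most like Ankrd9 and Necab3, both with 0.89, and Ago4 most like Zranb3 with 0.98 and Daam1 with 0.95. Tnrc6a was most like Polq, DNA polymerase theta, with 0.96 and Myo5a, myosin Va, with 0.95. Tnrc6b was most like Hmgb1-ps1, a pseudogene whose probe may also read Hmgb1, with 0.95 and Fbxo21 with 0.93. Tnrc6c was most like Sf1, a splicing factor, and Zfp148, both with 0.96. With 9 columns and this many genes, high values of r are found by the search itself.

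The genes that act before and after the silencing complex were counted from 5 lists, of which 82 of 88 genes were tested. Among them 1 was higher and 1 lower in Drosha-deleted than in control cells by limma, beside 0.121% and 0.0476% of all genes. In Dicer-deleted against control cells 0 passed, beside 0.0173% of all genes. Between the deletions 1 was higher and 1 lower, beside 0.0520% and 0.00433%. The lower gene was Drosha, the deleted gene itself, in both comparisons. At an unadjusted p under 0.05, 9 were higher and 5 lower in Drosha-deleted against control, beside 15.4% and 11.5% of all genes. In Dicer-deleted against control 6 were higher and 5 lower at that p. Of all genes, 12.8% were higher and 9.14% lower at that p in Dicer-deleted against control. All calls were in the list of microRNA biogenesis, of which 15 of 18 genes were tested. Dgcr8, the RNA-binding partner of Drosha, averaged 12.32 ± 0.12 in Drosha-deleted, 10.72 ± 0.25 in Dicer-deleted and 10.67 ± 0.21 in control columns (SD, n = 3 each). It rose in Drosha-deleted cells by 1.65 relative to control (adjusted p = 0.011), by 1.60 relative to the Dicer deletion (adjusted p = 0.017) and by 1.90 against control 1 alone (adjusted p = 0.037). Drosha itself fell by 3.02 between the deletions (adjusted p = 1.2e-04). In Dicer-deleted against control cells the smallest p-values of this list were those of Dicer1, given above, and of Khsrp, which binds the loops of microRNA precursors and differed by 0.54 (adjusted p = 0.235) but by -0.03 against control 1 alone. The Dgcr8 call against control was lost without control 2, Drosha-deleted 1 or Drosha-deleted 2, and that between the deletions without any 1 of the 3 Drosha-deleted columns or of Dicer-deleted 1 or 3. Both Dgcr8 calls were also lost with the replicate block and with all 5 scanner settings run (3 with and 2 without the second control file), and the call against control was lost with the 2 groups alone. With the second control file kept, scanner signals less the 75th percentile or quantile normalised also lost the call of Drosha itself in both comparisons. Leaving out control 1 called 21 related genes in Drosha-deleted against control and 15 in Dicer-deleted against control. By the counts given above, that fit called a larger share of all genes than of these 82 in both comparisons. The median of this list was 0.08 in Drosha-deleted against control, -0.08 in Dicer-deleted against control and 0.19 between the deletions, where that of all genes was within 0.004 of 0.

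In the list of Argonaute loading and control, 30 of 31 genes were tested, and 0 passed in any comparison by limma. At an unadjusted p under 0.05, 4 were higher and 2 lower in Drosha-deleted against control, 5 higher and 3 lower in Dicer-deleted against control, and 0 higher and 1 lower between the deletions. Of all genes, 15.4% were higher and 11.5% lower at this p in Drosha-deleted against control, 12.8% and 9.14% in Dicer-deleted against control, and 3.23% and 2.42% between the deletions, so the list's counts lay near those shares. Ankrd52, known from human cells as a subunit of the phosphatase that acts on AGO2, averaged 10.39 ± 0.22 in Drosha-deleted and 9.56 ± 0.16 in control columns, a difference of 0.83 (adjusted p = 0.078). It differed by 0.99 against control 1 alone (adjusted p = 0.560), and by 0.38 between the deletions (adjusted p = 0.892). Stip1, the co-chaperone that links Hsp70 to Hsp90, differed from control by 0.45 in Drosha-deleted (adjusted p = 0.119) and by 0.44 in Dicer-deleted cells (adjusted p = 0.175). Fkbp4, an Hsp90 co-chaperone, differed by 0.41 in Dicer-deleted cells (adjusted p = 0.176). Against control 1 alone the Stip1 differences were 0.30 and 0.28 and the Fkbp4 difference 0.17. Ajuba, a LIM-domain protein, differed by -0.43 between the deletions (adjusted p = 0.688). The list medians were -0.05, -0.01 and 0.004 in the 3 comparisons, in the order used above.

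The effectors that TNRC6 proteins recruit showed no call. Of 20 deadenylase genes, 0 passed by limma in any comparison, and at an unadjusted p under 0.05 there was 1 higher and 1 lower in Drosha-deleted against control, 1 higher and 0 lower in Dicer-deleted against control, and 0 in either direction between the deletions, all at or below the shares of all genes given above. Btg1, an antiproliferative protein that binds CCR4-NOT, averaged 12.99 ± 0.11 in Drosha-deleted and 13.50 ± 0.30 in control columns, a difference of -0.51 (adjusted p = 0.122) that was -0.17 against control 1 alone. Its Dicer-deleted difference was -0.33 (adjusted p = 0.265), and 0.01 against control 1 alone. Cnot11, a CCR4-NOT subunit, differed from control by 0.37 in both Drosha-deleted (adjusted p = 0.185) and Dicer-deleted cells (adjusted p = 0.222), and by 0.16 in both against control 1 alone. Between the deletions Cnot9, another CCR4-NOT subunit, differed by -0.20 and Pabpc4, a poly(A)-binding protein, by -0.23, both with an adjusted p of 0.999. The list medians were -0.05 in Drosha-deleted against control, -0.07 in Dicer-deleted against control and -0.03 between the deletions.

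Of 16 genes of decapping and P bodies, 0 passed by limma in any comparison and 0 had an unadjusted p under 0.05. Of all genes, 15.4% were higher and 11.5% lower at this p in Drosha-deleted against control, and 12.8% and 9.14% in Dicer-deleted against control. Between the deletions 3.23% were higher and 2.42% lower. The smallest p-values in Drosha-deleted against control were those of Lsm1, part of the ring that promotes decapping, with -0.39 (adjusted p = 0.186), and Gigyf2, a translational repressor, with -0.19 (adjusted p = 0.402). With control 1 as the lone control these were 0.0071 for Lsm1 and -0.12 for Gigyf2. In Dicer-deleted against control they were those of Lsm14b, a P-body protein, with -0.26 (adjusted p = 0.274), and Dcp1b, a decapping cofactor, with -0.21 (adjusted p = 0.318), and these were -0.10 and -0.30 against control 1 alone. Between the deletions Dcp1b differed by 0.26 (adjusted p = 0.905) and Lsm1 by -0.26 (adjusted p = 0.999). The list medians were -0.10 in Drosha-deleted against control, -0.08 in Dicer-deleted against control and -0.01 between the deletions. Of the 3 genes of the PIWI clade, the germline relatives of the Argonautes, Piwil2 alone was tested. It averaged 6.08 ± 0.03 in Drosha-deleted, 5.75 ± 0.23 in Dicer-deleted and 6.22 ± 0.23 in control columns. The Dicer-deleted difference from control was -0.47 (limma adjusted p = 0.176), and -0.23 against control 1 alone. Its probe was dim, with group means below the column medians of 6.36 to 6.38.

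**Figure D4:**
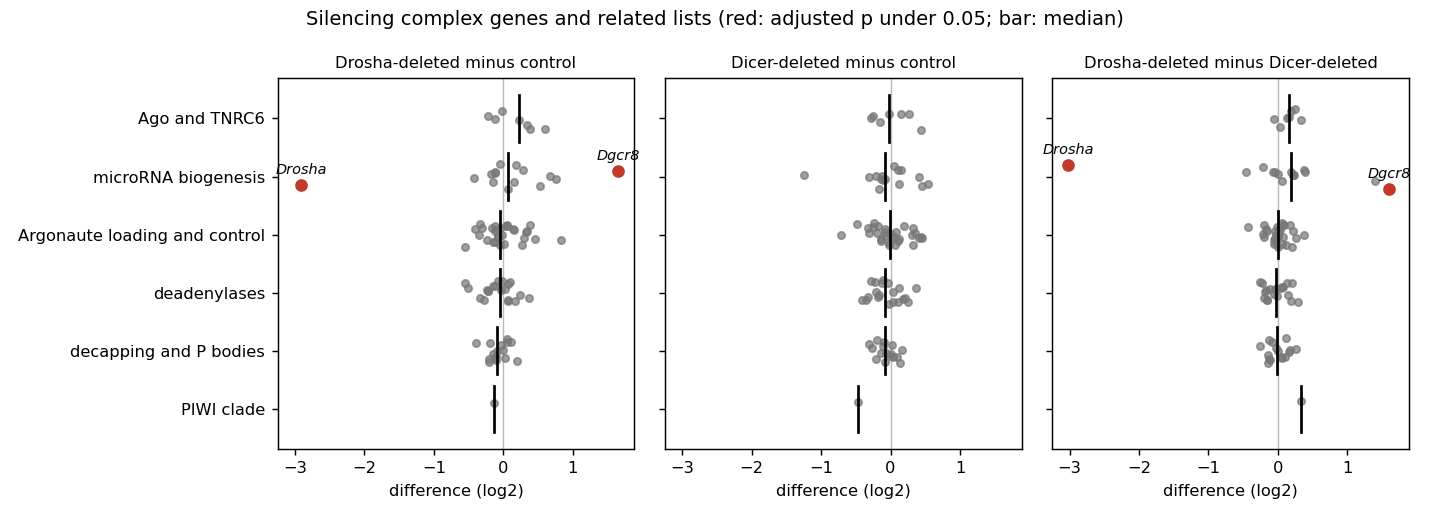
Differences on the log2 scale of the 7 silencing complex genes and of the genes of the 5 related lists in the 3 comparisons, 1 point per gene, with a bar at the list median. Red points passed the threshold. Only Drosha and Dgcr8 passed, in the left and right panels, and the 7 genes have medians of 0.23, -0.02 and 0.16.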

How the data were processed

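RNA was measured on 9 one-colour Agilent arrays with probe positions on mm9. The deposited scanner files hold intensity values made with Feature Extraction 10.7.3.1 under protocol GE1_107_Sep09, per the file headers, with background subtracted and no normalisation between arrays. The levels used here are the authors' deposited log2 series values, whose columns share nearly the same quantiles, and the submitters' processing notes name limma without a version. Their background step, and which array made which column, are not given in these sources. Spots on the array numbered 62976, of which 3671 controls were left out, and 59305 rows of deposited series values were matched to probes by feature number.

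Probes had to be well above background in all arrays of 1 group or more, and the kept probe with the highest mean over the 9 columns stood for its gene. Probes of a named gene were placed by the file's symbol or accession through RefSeq, and positions are those of the array files. Differences were tested in R 4.3.3 with limma 3.58.1 (data.table, version 1.17.8), using a mean per group over all 9 arrays, two-sided moderated tests and Benjamini-Hochberg adjustment over 23094 genes (threshold 0.05), or over 31490 probes where single probes are given. The fit was tested on simulated data. The members, the lists and the rule for naming genes were chosen with earlier results of these data known. The rule names all members, Drosha and Dicer1, the genes of each list past the threshold in a comparison or otherwise the 2 with the smallest p, and the 2 genes most correlated with each member. Cd14, 2310051F07Rik and 1110029L17Rik were named after their values were seen, as were the fits without the second control file or with control 1 alone. Other alternatives were scanner signals with other normalisations, other filters, the mean of all probes of a gene, 2 groups only, array weights, slide and replicate number as terms, and leaving out each array. The slide term amounts to leaving out control 3, the only array on its slide. Replicate numbers did not pair the samples, so the fit has no replicate block.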

Additional observations from a re-analysis of the deposited data

How the results depend on the processing

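The second control scanner file limits the scanner alternatives, in which the median of all genes moved by up to 0.375 against control with that file and by at most 0.017 without it. The filter on signal over background removed no member, since all their probes lay well above background on the 9 arrays. Ago3 was nonetheless dim, at percentiles 40 to 54 of the columns, and on control 2 the call held for 93.1% of probes. Members past the threshold stayed at 0 under every alternative except array weights, with 3 in Drosha-deleted against control (1 higher, Tnrc6a, and 2 lower, Ago4 and Tnrc6c), 2 in Dicer-deleted against control (1 higher, Ago1, and 1 lower, Tnrc6c) and 0 between the deletions. Those weights gave 0.147 to control 1 and 2.40 to control 3, and called 11648, 10038 and 150 of all genes, against 39, 4 and 13. Leaving out control 1 called 7763 and 7045 of all genes against control and 0 of the 7 members.

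Related genes past the threshold in Drosha-deleted against control cells numbered 2, and 0 with the scanner signal less the 75th percentile or quantile normalised, 1 with normexp, 1 with either of these scanner settings without the second control file, 1 with the 2 groups alone and 36 with array weights. Between the deletions they numbered 2, and 0, 0 and 1 with the same scanner settings, 1 and 1 without the second control file, and 4 with array weights. In Dicer-deleted against control cells they numbered 0, and 28 with array weights. With the replicate block 1 related gene was called in Drosha-deleted against control, 0 in Dicer-deleted against control and 1 between the deletions, with 0 members each, and Tnrc6a had an adjusted p of 0.162 in Drosha-deleted against control. Same-numbered columns had correlations of their deviations from -0.276 to 0.239 over 9 pairs, against -0.294 to 0.282 over 18 pairs with different numbers. Leaving out 1 array gave 1 to 21, 0 to 15 and 1 to 2 related genes in these comparisons, the highest without control 1, and 0 members throughout. By the counts above, array weights and the fit without control 1 called a larger share of all genes than of related genes against control. Between the deletions array weights called a smaller share of all genes.

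Small differences changed sign, and the cause was not tested. With the scanner signal less the 75th percentile, Drosha-deleted minus control was 0.20 for Ago3 and 0.58 for Tnrc6c, and Dicer-deleted minus control 0.18 for Ago3, 0.47 for Tnrc6b and 0.41 for Tnrc6c. With normexp these were 0.17, 0.84, 0.11, 0.76 and 0.70, and with quantile normalised scanner signals 0.84, 1.01, 0.78, 0.87 and 0.85. Without the second control file, Ago3 less the 75th percentile was 0.18 in Drosha-deleted and 0.16 in Dicer-deleted columns, and Tnrc6c 0.016 in Drosha-deleted cells after quantile normalisation. With slide as a term, in effect without control 3, Ago3 was 0.12 in Drosha-deleted and Tnrc6b 0.051 in Dicer-deleted cells. Against control 1 alone, Ago3 was 0.14 and Tnrc6c 0.26 in Drosha-deleted cells, and Ago3 0.0056, Tnrc6b 0.26 and Tnrc6c 0.10 in Dicer-deleted cells. With array weights, Ago2 was -0.0093 in Dicer-deleted cells and Ago4 -0.10 between the deletions, where the mean of its probes gave -0.037. Leaving out 1 array gave -0.10 to 0.12 for Ago3 and -0.32 to 0.059 for Tnrc6c in Drosha-deleted against control, and -0.16 to 0.051 for Tnrc6b in Dicer-deleted against control. Between the deletions it gave -0.22 to 0.050 for Ago1, -0.045 to 0.38 for Ago2, -0.13 to 0.13 for Ago4 and -0.043 to 0.34 for Tnrc6c. Tnrc6a kept its positive difference in Drosha-deleted against control cells in every alternative run. A kept sign was not particular to Tnrc6a. With the scanner signal less the 75th percentile, Ago1, Ago2, Ago4 and Tnrc6b also kept theirs in this comparison, where the median of all genes was 0.36.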
